A study of Homo sapiens with 18 samples.

Results

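The genes described here control the sterol regulatory element binding proteins (SREBPs), together with the sterol carrier gene STARD4. They were taken by name from the rows of the deposited table: SREBF1, SREBF2, SCAP, INSIG1, INSIG2, MBTPS1, MBTPS2 and STARD4, 8 of 23713 rows. The RNA came from MOLM-13 cells, a human leukaemia line of the monocytic kind, kept for 24 h or 4 h with dTRIM24, IACS-9571 or DMSO, the solvent control. The labels name 18 samples in 6 groups of 3, all of MOLM-13 cells: dTRIM24 at 24 h, IACS-9571 at 24 h, DMSO at 24 h, dTRIM24 at 4 h, IACS-9571 at 4 h and DMSO at 4 h. IACS-9571 is a ligand for bromodomains, the modules that read acetylated histones, and occupies those of TRIM24 and BRPF1. dTRIM24 carries a bromodomain ligand joined to a ligand of the ubiquitin ligase receptor VHL, which marks TRIM24 protein for degradation. The labels state no doses.

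SREBPs are transcription factors made as membrane proteins of the endoplasmic reticulum. SREBF2 encodes the factor best known for sterol synthesis genes, and SREBF1 encodes factors best known for fatty acid synthesis genes. The escort protein SCAP carries them to the Golgi when membrane sterol is low, while the INSIG proteins hold SCAP back when sterol is ample. In the Golgi the proteases encoded by MBTPS1 and MBTPS2 cut the factor free, and it enters the nucleus. INSIG1, SREBF2 and STARD4, which encodes a soluble carrier of cholesterol between membranes, are themselves known SREBP targets, so the pathway contains its own feedback.

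For each gene the table gives only the mean FPKM of each group (fragments scaled for transcript length and between libraries), without values per library. Replicate errors, tests and intervals are therefore lacking for every value below, and the read depth is unknown. Differences are of log2(FPKM + 1) between group means, and "past 2-fold" means at least 1 on that scale. They were set beside 11053 kept genes, those with at least 1 FPKM in their highest group; all 8 genes passed. The spread of single RNAs between columns is shown by 25 ERCC spike-ins, whose log2 differences had an SD between 0.11 and 0.22. At each time both compounds share 1 DMSO mean as their control. In bulk RNA a change in the mixture of cell states and a change of level per cell cannot be told apart. Of 8 myeloid marker genes the lowest value in any group was 3.55 FPKM (MPO), and CD33 lay between 25.6 and 31.7 FPKM. Of 11 markers of other cell types, KRT18 had 22.1 to 29.7 FPKM and the other 10 stayed at or below 0.594 FPKM.

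The promoters of SREBF2, INSIG1 and STARD4 are shown because these are the 3 genes that lay furthest above DMSO at 4 h with IACS-9571. With dTRIM24 at 4 h INSIG2 (0.14) and MBTPS2 (0.13) stood further above DMSO than SREBF2 (0.10). Each window runs from 250 bases before to 50 bases after the RefSeq gene start on GRCh38.p14, and all 8 genes had a window. Capitals mark CACNCCAC (the core of a sterol regulatory element), CCAAT (bound by NF-Y) and CACGTG (an E-box), searched on both strands; TCACNCCAC contains CACNCCAC. SREBF2 lies at chr22:41832855-41833154 on the plus strand, INSIG1 at chr7:155297628-155297927 on the plus strand and STARD4 at chr5:111512486-111512785 on the minus strand. The sequences read 5′ to 3′ along each gene:
SREBF2: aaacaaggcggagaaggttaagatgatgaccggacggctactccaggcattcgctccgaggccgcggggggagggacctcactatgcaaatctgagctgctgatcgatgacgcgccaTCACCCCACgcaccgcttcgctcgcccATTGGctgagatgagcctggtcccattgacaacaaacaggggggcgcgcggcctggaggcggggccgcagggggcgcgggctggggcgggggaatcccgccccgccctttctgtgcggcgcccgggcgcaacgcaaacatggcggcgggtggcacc
INSIG1: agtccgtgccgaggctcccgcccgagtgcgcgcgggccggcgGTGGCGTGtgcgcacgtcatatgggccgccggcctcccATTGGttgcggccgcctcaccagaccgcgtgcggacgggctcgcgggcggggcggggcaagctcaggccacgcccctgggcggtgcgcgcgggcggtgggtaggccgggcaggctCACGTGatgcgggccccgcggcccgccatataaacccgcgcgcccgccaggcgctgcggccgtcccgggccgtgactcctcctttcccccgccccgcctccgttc
STARD4: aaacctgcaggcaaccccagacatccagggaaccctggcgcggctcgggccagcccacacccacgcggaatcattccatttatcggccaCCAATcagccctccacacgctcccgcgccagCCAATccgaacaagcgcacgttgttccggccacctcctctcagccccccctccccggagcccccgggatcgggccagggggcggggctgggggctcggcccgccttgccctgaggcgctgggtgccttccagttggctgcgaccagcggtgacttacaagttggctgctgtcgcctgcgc
In SREBF2 the longer form TCACNCCAC matched once, at base 118 of the window, and CCAAT matched once on the reverse strand at base 145. INSIG1 held CACNCCAC on the reverse strand at base 43, CCAAT on the reverse strand at base 81 and CACGTG at base 196. STARD4 held CCAAT at bases 90 and 121 and no CACNCCAC. Of 35116 promoter windows 1.13% held TCACNCCAC, 5.87% CACNCCAC, 34.6% CCAAT and 7.26% CACGTG. Of the other 5 genes, SCAP held CACGTG once, and SREBF1, INSIG2, MBTPS1 and MBTPS2 held none of these motifs. These are matches of letters in a reference sequence, and binding was not measured.

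INSIG1 and STARD4 showed the largest differences of the 8 genes, and both rose past 2-fold at 4 h with each compound. INSIG1 mRNA, for the retention protein, had 195.9 FPKM in dTRIM24, 226 FPKM in IACS-9571 and 60.9 FPKM in DMSO at 4 h. STARD4 had 10.7 FPKM in dTRIM24, 10.5 FPKM in IACS-9571 and 4.25 FPKM in DMSO at that time. Both compound groups thus stood well above DMSO for both genes, and for STARD4 they lay next to each other. With dTRIM24 the differences from DMSO were 1.67 for INSIG1 and 1.16 for STARD4, and with IACS-9571 they were 1.88 and 1.13. These were the only 2 of the 8 genes past 2-fold in either comparison, both higher. Among all kept genes 0.67% were past 2-fold higher with dTRIM24 at 4 h and 0.253% with IACS-9571. INSIG1 ranked 59th from the top of 11053 genes with dTRIM24 and 10th with IACS-9571, and STARD4 ranked 68th with dTRIM24 and 25th with IACS-9571.

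At 24 h both genes lay much closer to DMSO. INSIG1 was at 72.1 FPKM in dTRIM24, 54.98 FPKM in IACS-9571 and 53.03 FPKM in DMSO. STARD4 was at 5.21 FPKM in dTRIM24, 4.43 FPKM in IACS-9571 and 3.93 FPKM in DMSO. By FPKM the 3 groups stood in the same order for both genes, dTRIM24 highest and DMSO lowest, at much smaller distances than at 4 h. With IACS-9571 the differences from DMSO were 0.05 for INSIG1 and 0.14 for STARD4. With dTRIM24 they were 0.44 and 0.33, and relative to the median of all kept genes in that comparison, 0.26, they were 0.18 and 0.08. Relative to the median of their own comparison, -0.02, the IACS-9571 differences were 0.07 for INSIG1 and 0.16 for STARD4. On that scale STARD4 stood higher with IACS-9571 than with dTRIM24. Set at 24 h against 4 h, INSIG1 differed by -1.43 with dTRIM24, by -2.02 with IACS-9571 and by -0.20 in DMSO. STARD4 differed by -0.92 with dTRIM24 (a ratio of FPKM of 0.486), by -1.08 with IACS-9571 and by -0.09 in DMSO. In these comparisons 0.624% of kept genes were past 2-fold lower with dTRIM24, 0.434% with IACS-9571 and 0.0543% in DMSO. The genes past 2-fold lower were INSIG1 with dTRIM24, INSIG1 and STARD4 with IACS-9571, and none of the 8 in DMSO. The kept genes as a whole were lower at 24 h, by a median of -0.26 with IACS-9571 and -0.22 in DMSO, against 0.05 with dTRIM24. Less that median, STARD4 with IACS-9571 stood at -0.82, below the 2-fold bound.

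**Figure D1:**
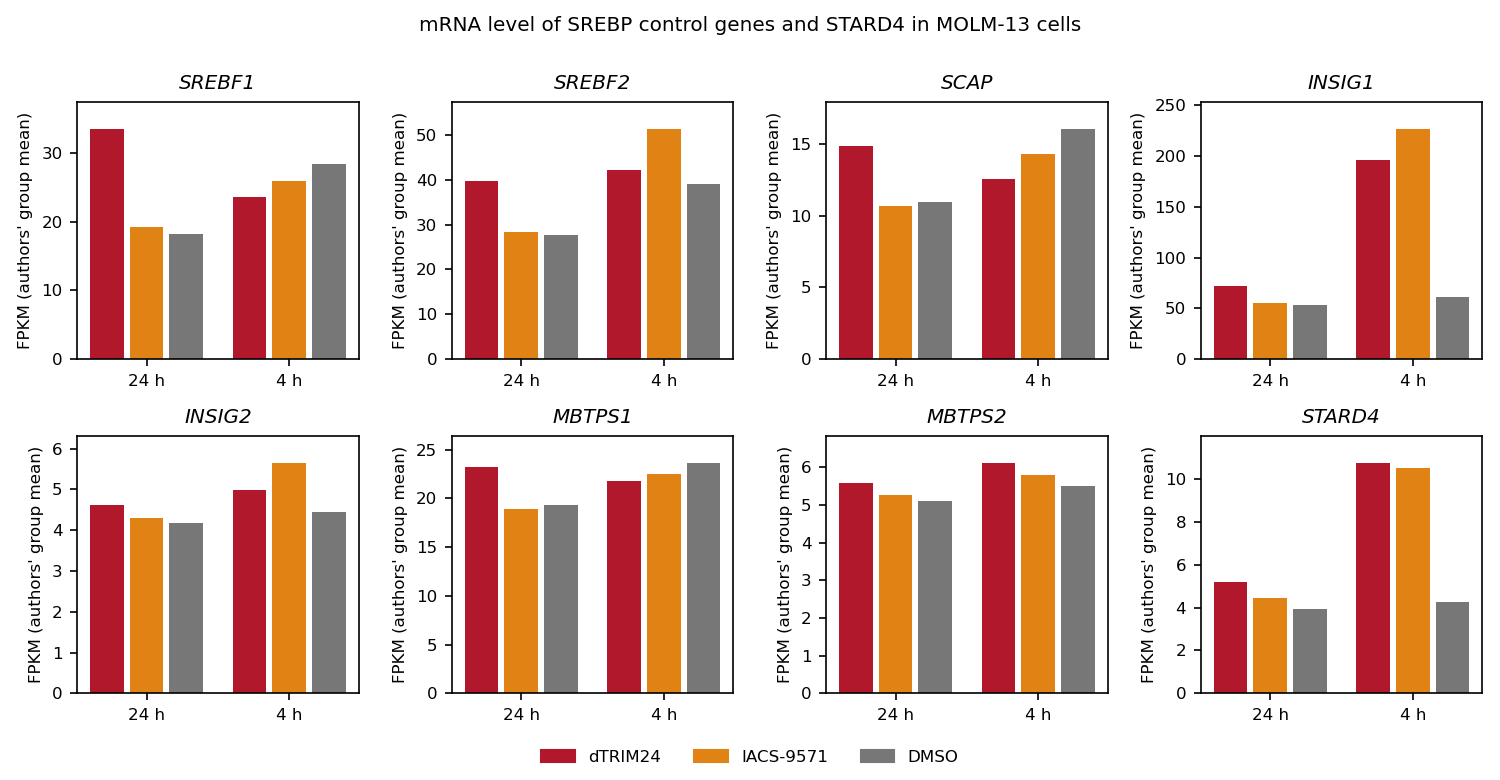
FPKM (the authors' group means, vertical axis from 0, scale differing by gene) of the 8 genes at 24 h (left bars) and 4 h (right bars) in dTRIM24, IACS-9571 and DMSO; there are no error bars because the table holds no values per library. INSIG1 (195.9 and 226 against 60.9 FPKM) and STARD4 (10.7 and 10.5 against 4.25 FPKM) stand above DMSO at 4 h, and SREBF1 is highest in dTRIM24 at 24 h (33.5 FPKM).

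Of the SREBP genes themselves, SREBF2 was the one that lay above most other genes at 4 h with IACS-9571. It had 42.1 FPKM in dTRIM24, 51.3 FPKM in IACS-9571 and 39.1 FPKM in DMSO. IACS-9571 was highest, and dTRIM24 lay close to DMSO. The difference from DMSO was 0.38 with IACS-9571, above the central 95% of kept genes (-0.23 to 0.27) and ranked 141st of 11053, and 0.10 with dTRIM24, inside it (-0.33 to 0.28). At 24 h SREBF2 had 39.7 FPKM in dTRIM24, 28.5 FPKM in IACS-9571 and 27.6 FPKM in DMSO. Its difference from DMSO was then 0.04 with IACS-9571, and 0.51 with dTRIM24, or 0.25 relative to the median of all kept genes. Set at 24 h against 4 h, SREBF2 differed by -0.08 with dTRIM24, by -0.83 with IACS-9571 and by -0.49 in DMSO. Relative to the median of all genes these were -0.13, -0.57 and -0.27. With the GC trend described below taken out they were -0.18, -0.51 and -0.14.

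SREBF1 ran differently: at 4 h both compound groups lay under DMSO, and at 24 h dTRIM24 lay far above both other groups. It had 33.5 FPKM in dTRIM24, 19.2 FPKM in IACS-9571 and 18.3 FPKM in DMSO at 24 h. The 4 h levels were 23.6 FPKM in dTRIM24, 25.9 FPKM in IACS-9571 and 28.4 FPKM in DMSO. With dTRIM24 at 24 h SREBF1 stood 0.84 above DMSO (a ratio of 1.83) and 0.77 above IACS-9571. With IACS-9571 it differed from DMSO by 0.07 at that time. The dTRIM24 differences ranked 40th and 35th of 11053 genes and lay outside the central 95% of kept genes both times (-0.02 to 0.64, and 0.04 to 0.60), though not past 2-fold. Relative to the median of all genes the values were 0.58 and 0.49. The SREBF1 difference from DMSO at 4 h was -0.26 with dTRIM24 and -0.13 with IACS-9571, both inside the central range. Set at 24 h against 4 h, SREBF1 differed by 0.49 with dTRIM24, by -0.41 with IACS-9571 and by -0.61 in DMSO. Relative to the median of all genes these were 0.44, -0.15 and -0.39, and with the GC trend described next taken out they were 0.33, -0.04 and -0.16. RAI1, a gene that overlaps SREBF1 on the other strand, had 5.10 FPKM in dTRIM24, 3.09 FPKM in IACS-9571 and 2.78 FPKM in DMSO at 24 h. How strand was handled is not stated, so reads of the overlap cannot be told apart; the table also joins the SREBF1 isoforms in 1 row.

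Differences in these data ran with the GC content of transcripts, and SREBF1 is the most GC-rich of the 8 genes. The median GC content of its annotated transcripts is 63.3%, against 59.4% for SCAP, 57.1% for SREBF2, 51.1% for MBTPS1, 46.4% for INSIG1, 40.6% for STARD4, 39.8% for MBTPS2 and 37.2% for INSIG2. With dTRIM24 against DMSO the Spearman rho of difference and GC content across genes, which are not independent, was 0.60 at 24 h and -0.72 at 4 h. With IACS-9571 against DMSO it was 0.16 at 24 h and -0.40 at 4 h. For DMSO at 24 h against DMSO at 4 h it was -0.72, so a trend also appeared without either compound. With dTRIM24 against DMSO the median difference in the most GC-rich of 10 bins of kept genes was 0.48 at 24 h and -0.22 at 4 h. With a cubic trend on GC content taken out, SREBF1 stood at 0.39 with dTRIM24 against DMSO at 24 h, still above the central 95% of the 10769 genes with a GC value (-0.26 to 0.30), and at -0.10 at 4 h. INSIG1 and STARD4 at 4 h kept 1.63 and 1.04 with dTRIM24 and 1.84 and 1.08 with IACS-9571. SREBF2 with IACS-9571 at 4 h kept 0.42. What part the GC content has in the SREBF1 difference was not tested.

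**Figure D2:**
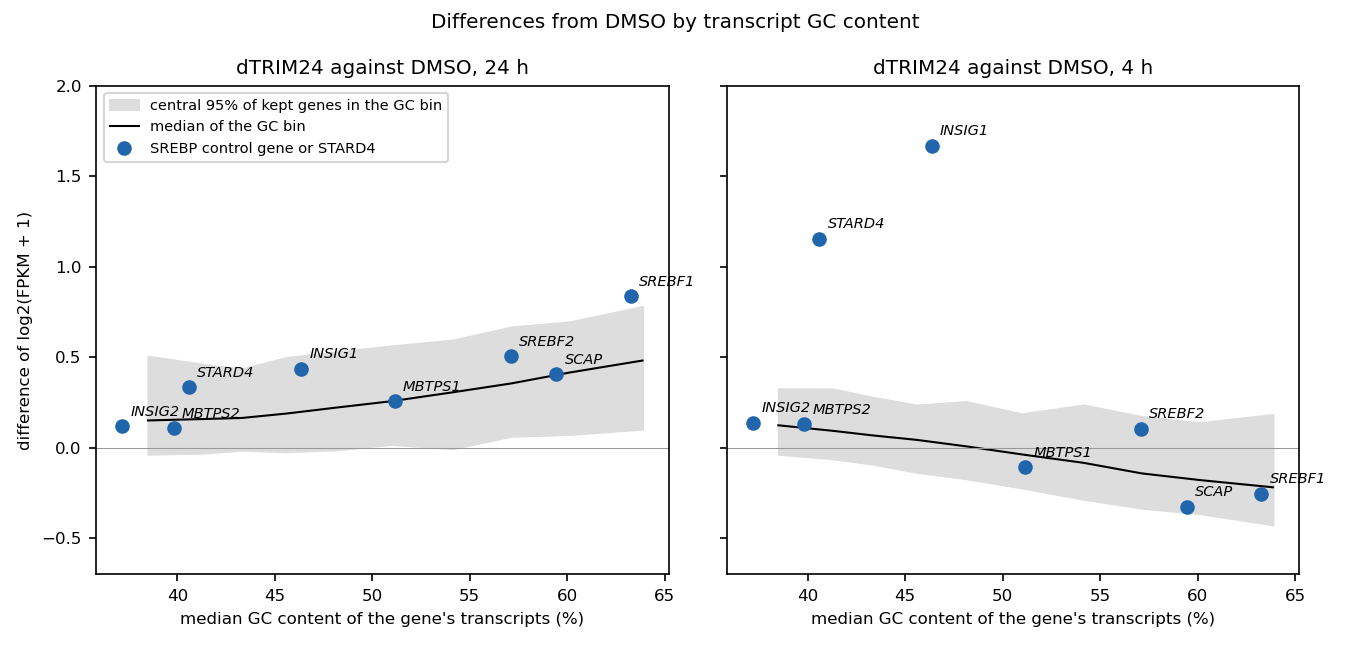
Difference of log2(FPKM + 1) between dTRIM24 and DMSO (vertical axis) at 24 h (left) and 4 h (right) by the median GC content of a gene's transcripts (%, horizontal axis); the line is the median and the grey area the central 95% of the kept genes in 10 GC bins, and each point is 1 of the 8 genes. SREBF1 (0.84) lies just above the grey area at 24 h, and INSIG1 (1.67) and STARD4 (1.16) lie far above it at 4 h.

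The escort gene SCAP was not past 2-fold in any comparison, and its dTRIM24 differences had opposite signs at the 2 times. SCAP had 12.6 FPKM in dTRIM24, 14.3 FPKM in IACS-9571 and 16.0 FPKM in DMSO at 4 h. It had 14.9 FPKM in dTRIM24, 10.7 FPKM in IACS-9571 and 11.0 FPKM in DMSO at 24 h. At 4 h both compound groups were under DMSO, and at 24 h dTRIM24 was the highest group. The difference of dTRIM24 from DMSO was 0.41 at 24 h and -0.33 at 4 h, both inside the central 95% of kept genes. Once the GC trend was removed, the values were 0.02 and -0.20. SCAP differed by -0.04 at 24 h and -0.16 at 4 h with IACS-9571. Between the times the DMSO mean moved more than the dTRIM24 mean. SCAP at 24 h differed from SCAP at 4 h by 0.23 with dTRIM24, by -0.39 with IACS-9571 and by -0.51 in DMSO. Relative to the median of all kept genes these were 0.18, -0.13 and -0.29. Since INSIG1 was high at 4 h, the ratio of INSIG1 to SCAP mRNA, both in FPKM, was 15.6 in dTRIM24 and 15.9 in IACS-9571 against 3.80 in DMSO. At 24 h this ratio was 4.85 in dTRIM24, 5.16 in IACS-9571 and 4.83 in DMSO.

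INSIG2, the second retention protein, stayed low in all groups and moved little. INSIG2 had 4.99 FPKM in dTRIM24, 5.64 FPKM in IACS-9571 and 4.45 FPKM in DMSO at 4 h. At 24 h it had 4.62 FPKM in dTRIM24, 4.29 FPKM in IACS-9571 and 4.18 FPKM in DMSO. IACS-9571 at 4 h was the highest group, with a difference from DMSO of 0.28, just above the central 95% of kept genes, and 0.23 with the GC trend taken out, inside it. In the remaining comparisons with DMSO INSIG2 differed by 0.14 (dTRIM24, 4 h), 0.12 (dTRIM24, 24 h) and 0.03 (IACS-9571, 24 h). INSIG1 mRNA exceeded INSIG2 mRNA 39.2-fold in dTRIM24 and 40.2-fold in IACS-9571 at 4 h, against 13.7-fold in DMSO, on the scale of FPKM. At 24 h the same ratio was 15.6 in dTRIM24, 12.8 in IACS-9571 and 12.7 in DMSO.

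The protease genes varied least of the 8. MBTPS1, the first protease to cut, had 21.8 FPKM in dTRIM24, 22.5 FPKM in IACS-9571 and 23.6 FPKM in DMSO at 4 h. It had 23.2 FPKM in dTRIM24, 18.9 FPKM in IACS-9571 and 19.3 FPKM in DMSO at 24 h. Its difference of 0.26 with dTRIM24 against DMSO at 24 h equals the median of all kept genes, so that it stood at 0.00 relative to it. MBTPS2, the second protease, had 6.10 FPKM in dTRIM24, 5.80 FPKM in IACS-9571 and 5.49 FPKM in DMSO at 4 h. At 24 h it had 5.57 FPKM in dTRIM24, 5.25 FPKM in IACS-9571 and 5.10 FPKM in DMSO. Over the 6 groups the highest mean was 1.25 times the lowest for MBTPS1 and 1.20 times for MBTPS2, against 4.27 times for INSIG1 and 2.73 times for STARD4. The other 4 genes had ratios between 1.35 (INSIG2) and 1.85 (SREBF2). Neither protease gene left the central 95% of kept genes in any of the 9 comparisons, as deposited or with the GC trend taken out. YY2, a gene that lies within MBTPS2, did not exceed 0.832 FPKM, and STARD4-AS1, antisense to STARD4, did not exceed 0.804 FPKM.

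By level, FPKM being per length, INSIG1 was the highest and SREBF2 the second of the 8 in each of the 6 groups. SREBF1 came next in 5 groups, and MBTPS1 came next in DMSO at 24 h (19.3 against 18.3 FPKM for SREBF1). SCAP followed these 4 in each group. STARD4 was the lowest in DMSO at both times, while INSIG2 was the lowest in the 4 compound groups. The ratio of SREBF2 to SREBF1 was 1.78 in dTRIM24 and 1.98 in IACS-9571 against 1.38 in DMSO at 4 h. At 24 h it was 1.19 in dTRIM24, 1.48 in IACS-9571 and 1.51 in DMSO. Neighbours in these orders cannot be separated by a replicate spread here.

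The direct comparison of dTRIM24 with IACS-9571 sets the degrader beside the bromodomain ligand at matched times, with doses unknown. At 4 h none of the 8 genes was past 2-fold (0.597% of kept genes were, either way). SREBF2 differed by -0.28, outside the central 95% of kept genes (-0.26 to 0.20), and by -0.22 with the GC trend taken out. INSIG1 was at -0.21 and INSIG2 at -0.15, both inside that range as deposited; with the GC trend taken out they were at -0.22 and -0.23, below its range (-0.20 to 0.18). The other differences at 4 h were -0.17 for SCAP, -0.13 for SREBF1, -0.04 for MBTPS1, 0.03 for STARD4 and 0.06 for MBTPS2. At 24 h again none was past 2-fold (0.217% of kept genes were), all 8 differences were positive, and so were 98.4% of those of all kept genes. SREBF1, at 0.77, was the only one outside the central range. Against DMSO at 24 h none of the 8 was past 2-fold with dTRIM24 (0.199% of kept genes, either way) or with IACS-9571 (0.172%). All 8 lay above DMSO with dTRIM24 at 24 h, as did 96.8% of kept genes.

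**Figure D3:**
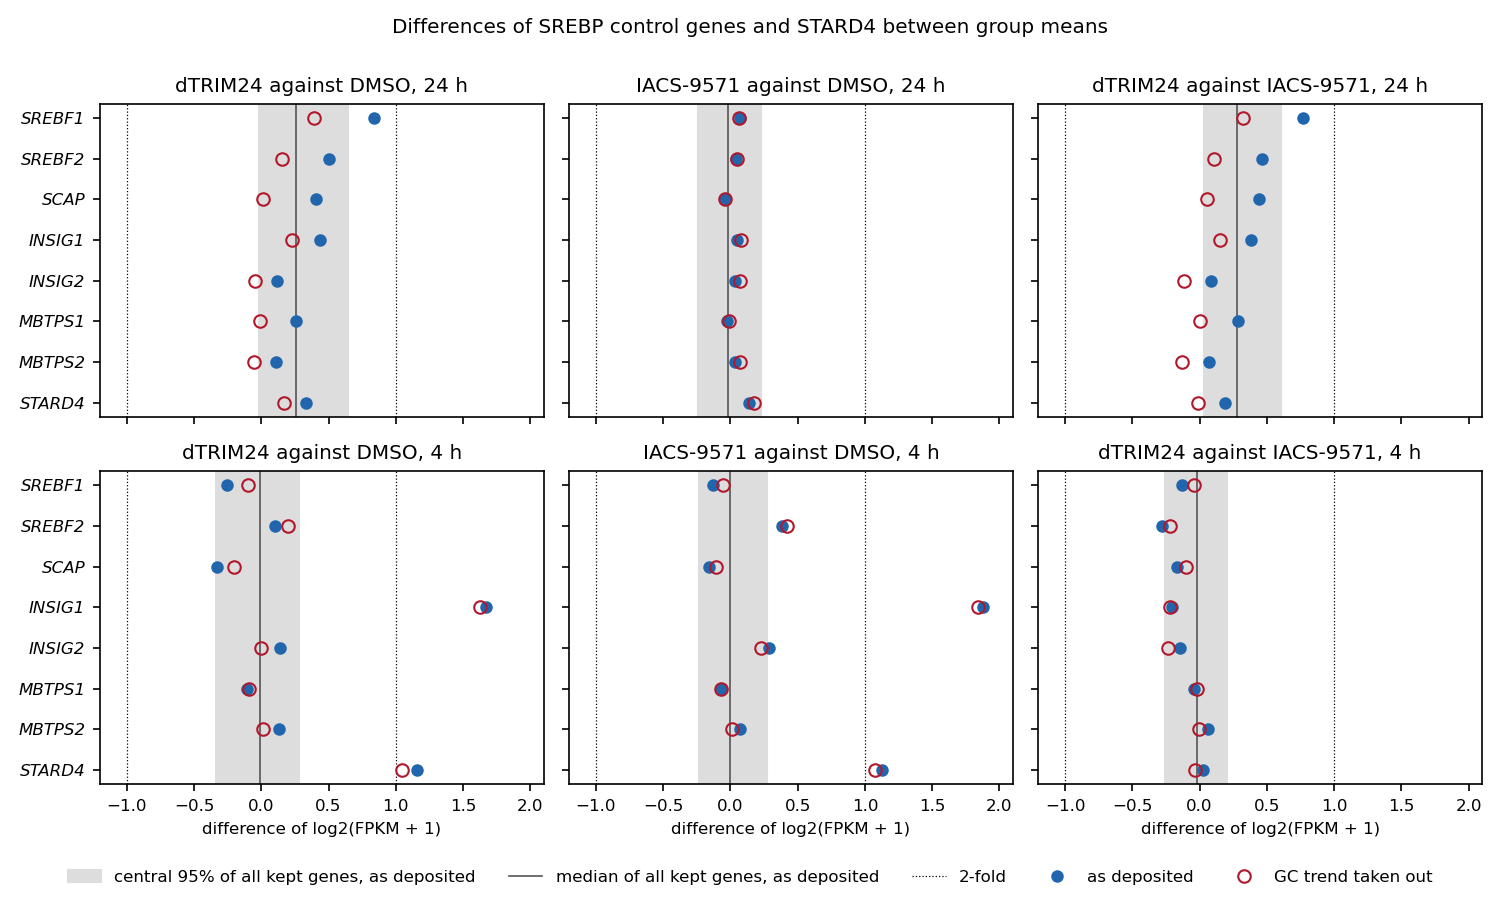
Differences of log2(FPKM + 1) between group means (horizontal axis) of the 8 genes in 6 comparisons, at 24 h (upper row) and 4 h (lower row); filled points are values as deposited, open points have the GC trend taken out, the grey band and line are the central 95% and the median of all kept genes as deposited, and dotted lines mark 2-fold. INSIG1 and STARD4 lie past 2-fold with both compounds against DMSO at 4 h, and SREBF1 lies outside the band with dTRIM24 at 24 h.

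Many, but not all, sterol synthesis enzymes were past 2-fold higher at 4 h as well. The sterol synthesis list had 22 symbols, some of them second names of the same gene, and its 20 genes were all kept. Of these 20, 8 were past 2-fold higher with dTRIM24 and 11 with IACS-9571 at 4 h, and none lower. Among all kept genes the shares past 2-fold higher were 0.67% and 0.253%. The values of the list ran from -0.13 to 1.92 with dTRIM24 and from 0.00 to 2.32 with IACS-9571. The median of the list was 0.81 with dTRIM24 and 1.08 with IACS-9571, against -0.01 and 0.00 for all kept genes. MVK, the mevalonate kinase, had 23.2 FPKM in dTRIM24, 31.4 FPKM in IACS-9571 and 10.7 FPKM in DMSO. Set at 4 h against IACS-9571, dTRIM24 was lower for all 20, by a median of -0.27, against -0.02 for all kept genes. Of all kept genes 42.5% were higher in that comparison. Of 12 kept fatty acid synthesis and desaturation genes, 2 were past 2-fold higher with dTRIM24 and 3 with IACS-9571 at 4 h, with medians of 0.30 and 0.56 and lowest values of -0.03 and -0.07. SCD, a desaturase, had 589.7 FPKM in dTRIM24, 696 FPKM in IACS-9571 and 276 FPKM in DMSO at 4 h. At 24 h with dTRIM24 the median of the fatty acid list was 0.38, against 0.26 for all kept genes, and FADS2, another desaturase, was past 2-fold (1.24). That call was lost less the all-gene median (0.98) and with the GC trend taken out (0.89). FASN, the fatty acid synthase, had 56.1 FPKM in dTRIM24, 33.5 FPKM in IACS-9571 and 31.8 FPKM in DMSO at 24 h. Its difference of dTRIM24 from DMSO was 0.80, or 0.54 less the all-gene median and 0.32 with the GC trend taken out. These lists hold genes that were already known to move in these data.

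INSIG1 and STARD4 had 6-group profiles close to those of lipid synthesis enzymes, though which genes came nearest depended on the measure. Likeness was the root mean square difference between profiles of log2(FPKM + 1) centred on their mean, over 6 group means. For INSIG1 the 5 nearest genes were SQLE (0.11), the squalene epoxidase, MSMO1 (0.14), a sterol demethylating enzyme, HMGCS1 and CYP51A1 (both 0.19), and MVK (0.19). For STARD4 SC5DL (0.08), a sterol desaturase, HSD17B7 (0.12), SCD (0.14) and IDI1 (0.15), the isopentenyl diphosphate isomerase, were among the 5 nearest. With a pseudocount of 0.1 FPKM C6orf223 (0.17) was among the 5 nearest to INSIG1. By Pearson's correlation SC5DL was nearest to INSIG1 and SQLE and MSMO1 were not among the 5. These points share 6 means and 2 DMSO groups. The other 6 genes spanned less than 1 on the log2 scale and were not matched.

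**Figure D4:**
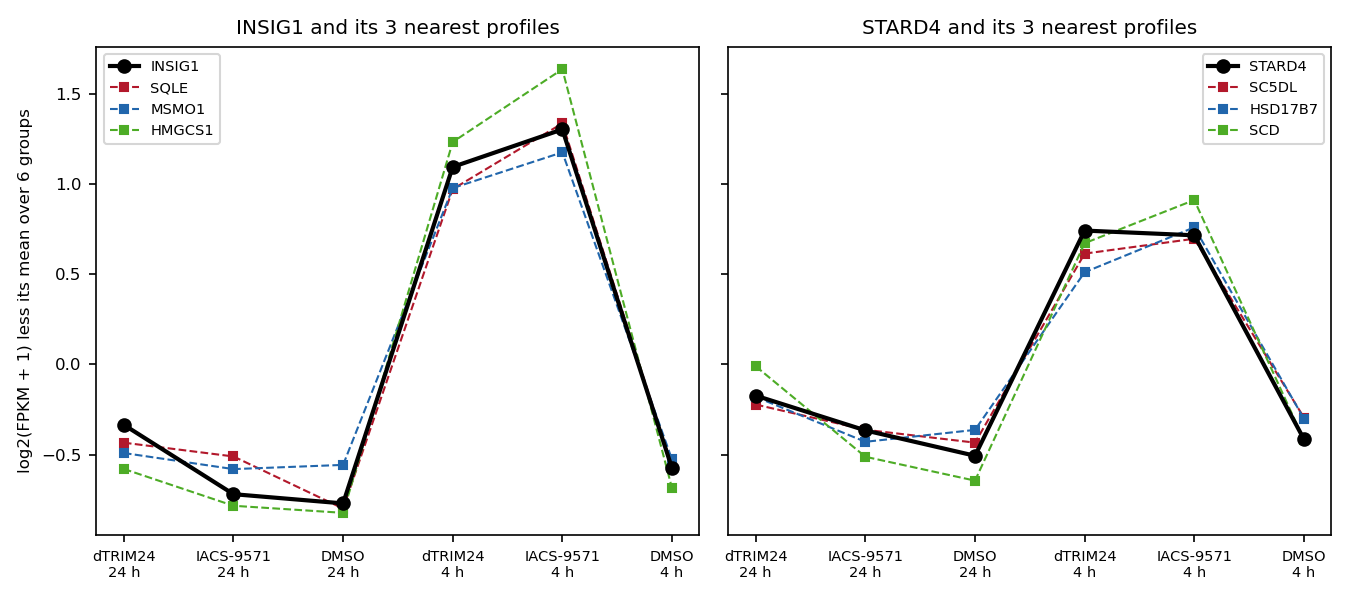
Profiles of INSIG1 (left) and STARD4 (right) with their 3 nearest genes over the 6 groups: log2(FPKM + 1) less its mean over the groups (vertical axis), 1 point per group mean, with lines joining points of a gene. Each gene peaks in the compound groups at 4 h; STARD4 has nearly equal values in dTRIM24 (10.7 FPKM) and IACS-9571 (10.5 FPKM).

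The COPII coat genes, whose products carry SCAP out of the endoplasmic reticulum, had medians at 4 h of 0.01 with both compounds. Of 10 such genes 0 were past 2-fold higher at 4 h, a count near the share of all kept genes (0.67% with dTRIM24 and 0.253% with IACS-9571). SEC13, a coat subunit, had the lowest value with dTRIM24 at 4 h (-0.21), and SEC24C had -0.16. At 24 h with dTRIM24 they were at 0.39 and 0.32, with SEC24B at 0.29 and SEC24A at 0.25, beside the all-gene median of 0.26; with the GC trend taken out these 4 lay between 0.03 and 0.10. Of 13 genes of INSIG and SREBP turnover and licensing, RNF5 was past 2-fold lower with dTRIM24 at 4 h. It had 1.31 FPKM there, against 3.89 FPKM in DMSO. In that comparison 2 of 11053 kept genes were past 2-fold lower. RNF5 has near-identical copies and is uncertain, and with the GC trend taken out it lay just inside the 2-fold bound. LPIN1, a phosphatidate phosphatase that also restrains nuclear SREBP, had 7.28 FPKM in dTRIM24, 8.55 FPKM in IACS-9571 and 3.78 FPKM in DMSO at 4 h. Its difference from DMSO was 0.79 with dTRIM24 and just under the 2-fold bound with IACS-9571. SYVN1, a ubiquitin ligase of the endoplasmic reticulum, and TMUB1 stood at 0.59 and 0.66 with dTRIM24 at 24 h, and at -0.11 and -0.42 at 4 h. With the GC trend taken out they stood at 0.25 and 0.15 at 24 h, and at -0.02 and -0.24 at 4 h.

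Other substrates of the 2 proteases, sterol transport genes, LXR genes and partners of SREBP at promoters had 0 genes past 2-fold in the comparisons with DMSO. That count is near the share of all kept genes (0.67% higher with dTRIM24 and 0.253% with IACS-9571 at 4 h, 0.199% and 0.172% either way at 24 h) and is no result about these lists. Of the 6 kept protease substrates, which include the stress sensors of the ATF6 family, CREB3L2 was highest at 4 h, at 0.30 with dTRIM24 and 0.29 with IACS-9571, while CREB3L4 had 0.17 and 0.07. ATF6B was at 0.47 and CREB3 at 0.43 with dTRIM24 at 24 h; removing the GC trend left 0.10 and 0.08. Among 13 kept sterol transport genes, TMEM97, a regulator of the lysosomal cholesterol transporter, had 42.9 FPKM in dTRIM24, 43.2 FPKM in IACS-9571 and 32.7 FPKM in DMSO at 4 h. NPC1, that transporter, had 6.84 FPKM in dTRIM24, 8.47 FPKM in IACS-9571 and 6.09 FPKM in DMSO. At 4 h TMEM97 (0.38 with dTRIM24, 0.39 with IACS-9571) and CREB3L2 lay above the central 95% of kept genes with both compounds. NPC1 (0.42) did so with IACS-9571 only. STARD3, a relative of STARD4, was at -0.21 with dTRIM24 and -0.14 with IACS-9571 at 4 h, and GRAMD1A was at -0.28 and -0.10. With the GC trend taken out STARD3 was at -0.08 and -0.09, and GRAMD1A at -0.14 and -0.05. The list of the sterol sensor LXR, which drives SREBF1 transcription, had 7 kept genes. At 4 h their medians were -0.12 with dTRIM24 and -0.03 with IACS-9571, or -0.02 and 0.01 once the GC trend was removed. With dTRIM24 at 24 h their median was 0.41, against 0.26 for all kept genes, or 0.02 once the GC trend was removed. MYLIP, an LXR target, was at -0.32 with dTRIM24 and -0.35 with IACS-9571 at 4 h, RXRA at -0.25 and -0.17, and NR1H2 at -0.30 and -0.14. With the GC trend taken out MYLIP was at -0.33 and -0.37, RXRA at -0.10 with both, and NR1H2 at -0.14 and -0.07. MYLIP lay below the central 95% of kept genes with IACS-9571 as deposited, and with both compounds once the GC trend was removed. Of 9 SREBP partners, USF1 was at 0.55, USF2 at 0.53, MED15 at 0.64 and CREBBP at 0.52 with dTRIM24 at 24 h, beside the all-gene median of 0.26. With the GC trend taken out they stood at 0.24, 0.11, 0.23 and 0.25. MIR33A and MIR33B, microRNAs of SREBF2 and SREBF1 introns, were listed in each group at the value shared by 6066 rows, at most 0.105 FPKM, so that nothing can be read from them.

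**Figure D5:**
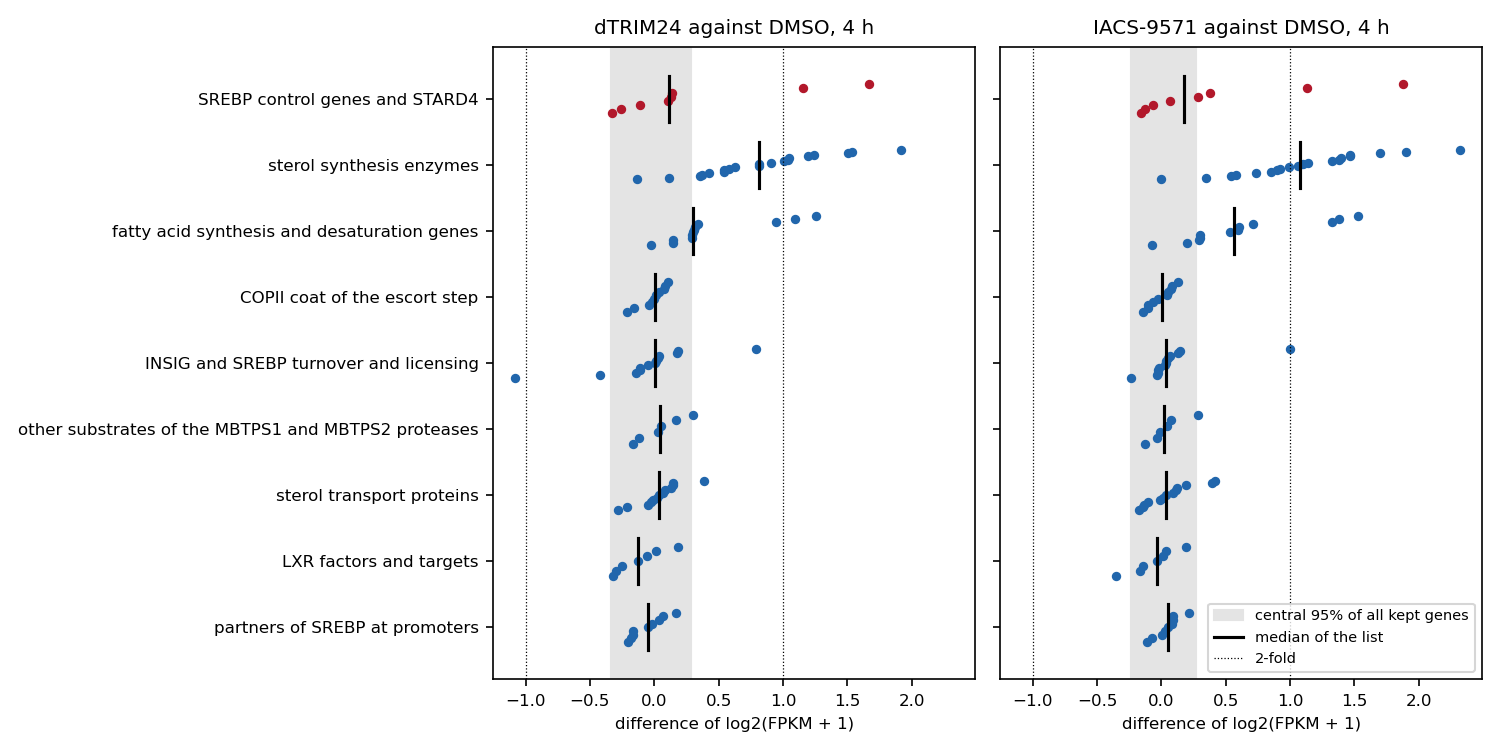
Differences of log2(FPKM + 1) from DMSO at 4 h (horizontal axis) for dTRIM24 (left) and IACS-9571 (right), 1 point per kept gene in each list (rows, with the 8 genes in red at the top; points offset vertically to show them), with the list median as a bar, the central 95% of all kept genes in grey and 2-fold as dotted lines. Sterol synthesis enzymes (medians 0.81 and 1.08) lie highest, and COPII coat genes (medians 0.01) stay within the grey band.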

How the data were processed

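RNA-seq of 18 MOLM-13 samples was used, 3 per group, grouped by titles and time points; the labels' treatment text gives 24 h throughout, and the titles were followed. The deposited FPKM values are the authors' means per group; TopHat2, Cuffnorm and hg19 are named by the submitters' processing notes, without versions, annotation or strand setting. Input was normalized to cell number with ERCC spike-ins added, per the labels. Whether replicates were separate cultures is not stated. Column totals ran from 771830 to 1058350 FPKM, while median spike-in differences between columns stayed between -0.06 and 0.02 on the log2 scale. In each column 6066 rows share 1 low value.

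Of 23713 rows, 92 spike-ins and 1705 small RNAs (by name) were left out, and 11053 genes with at least 1 FPKM in their highest group were kept. Differences of log2(FPKM + 1) were called at 1 or more. The planned limma fit needs values per library and was not run, so no p-value was computed. GC content is the median over a gene's GENCODE transcripts of at least 200 bases, matched by symbol (97.4% of kept genes). Promoter windows come from RefSeq (GRCh38.p14), and no coordinate of the authors' build is used. The 8 genes and the lists were chosen with earlier results of these data known. The text could name the 8 genes, up to 4 genes per list with the largest difference between a compound and DMSO, and the 5 profiles nearest to INSIG1 and STARD4, of which 1 is not reported here. The steps were tested on simulated data with independent noise of the spike-in spread, which checks the computation and says nothing about replicate error. Alternatives were pseudocounts of 0.1 and 0.5 FPKM, no filter, a minimum of 5 FPKM, centring on the median, quantile normalization, rescaling to spike-ins, a 1.5-fold threshold and removal of a cubic GC trend. Computations used Python 3.11.15 with numpy 2.4.6, pandas 2.3.3 and scipy 1.17.1; figures used matplotlib 3.10.9.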

Additional observations from a re-analysis of the deposited data

Results flagged for a closer look

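SREBF1 and SCAP lay above DMSO with dTRIM24 at one time and below it at the other, each time by more than the SD of the spike-ins in that comparison (0.17 at 24 h and 0.21 at 4 h). SREBF1 differed by 0.84 at 24 h and by -0.26 at 4 h, and SCAP by 0.41 at 24 h and by -0.33 at 4 h. From 4 h to 24 h the DMSO means changed by -0.61 (SREBF1) and -0.51 (SCAP), and the dTRIM24 means by 0.49 and 0.23. The spike-in SD covers technical spread only, and SCAP at both times and SREBF1 at 4 h lay inside the central 95% of kept genes. These are differences of group means, and the difference between the times was not tested. The median of all kept genes was 0.26 at 24 h and -0.01 at 4 h, and both genes are GC-rich (63.3% and 59.4%). With the GC trend taken out SREBF1 stood at 0.39 and -0.10, and SCAP at 0.02 and -0.20; only SREBF1 at 24 h then exceeded the spike-in SD.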

How the results depend on the processing

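No paired analysis was possible because the table holds 1 mean per group; leaving out a replicate could not be run for the same reason. The counts of 2 genes past 2-fold with each compound against DMSO at 4 h, INSIG1 and STARD4, stayed at 2 under all 9 alternatives. The changes of filter, the smaller pseudocounts and the 1.5-fold threshold could not have lowered these counts. With the 1.5-fold threshold the count was 1 for dTRIM24 against DMSO and 1 for dTRIM24 against IACS-9571 at 24 h (both SREBF1), where none passed 2-fold; 525 and 351 of 11053 kept genes were then called higher. SREBF1 stood at 0.58 and 0.49 centred on the median and at 0.39 and 0.32 with the GC trend taken out, under 1.5-fold. At 24 h against 4 h that threshold gave 2 in place of 1 for dTRIM24 (INSIG1 and STARD4), 3 in place of 2 for IACS-9571 (SREBF2 added) and 1 in place of 0 for DMSO (SREBF1), beside 98, 267 and 402 kept genes called lower. With a pseudocount of 0.1 FPKM it was 2 for dTRIM24 at 24 h against 4 h, where STARD4 also passed. For IACS-9571 at 24 h against 4 h it was 1, against 2 as deposited, with median centring, quantile normalization and the GC trend taken out, since STARD4 no longer passed. No difference past 2-fold changed sign. Among the 72 differences of the 8 genes, 30 that were not past 2-fold moved by more than the spike-in SD with median centring. The numbers were 30 with quantile normalization and 23 with the GC trend taken out. Median centring takes the same amount from every gene of a comparison, so its count follows from the medians and is not particular to these genes. With rescaling to spike-ins, none of the 72 that was not past 2-fold moved by more than the spike-in SD, and no call was lost. Without values per library, replicate error and depth remain unknown for each value.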
